A study of Rattus norvegicus with 50 samples.

Results

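The genes described here encode the proteins of the cytosolic ribosome. They were taken by symbol, as every Rpl or Rps symbol followed by a digit together with Rpsa, Rplp0, Rplp1 and Rplp2, without the Rps6k kinases, from the probe sets that the array annotation gives to 1 gene only. The rule found 50 genes among the 14217 measured. Of these, 29 encode large subunit proteins, 13 encode small subunit proteins and 8 are paralogs or pseudogenes (Rpl26l1, Rpl39l1, Rpl3l, Rpl7l1, Rps27l, Rps4y2, Rpl37-ps2 and Rps4x-ps1). Rplp1 and Rplp2 were not among the genes measured in this way. Livers came from 50 female Brown Norway rats (Bn/Crl, MHC haplotype RT1n) aged 9 to 11 weeks, each hybridised to 1 Affymetrix 3′ expression array. The combination group (12 rats) received oral nevirapine, an antiretroviral drug, at 150 mg/kg, then 100 mg/kg and, after a day without drug, 75 mg/kg, with 1 intraperitoneal dose of the hepatotoxin galactosamine at 750 mg/kg on day 7 and nevirapine continued at 75 mg/kg, and was sampled 3 h, 24 h, 48 h and 8 d after galactosamine. The galactosamine group (11 rats, 2 of them at 48 h) received sham oral doses and galactosamine at 750 mg/kg and was sampled at the same times. The nevirapine group (12 rats) received the oral schedule and a sham injection and was sampled 3 h, 24 h, 48 h and 15 d after its first dose. The vehicle group (15 rats) received sham doses and was sampled at 3 h, 24 h, 48 h, 8 d and 15 d. Each group at each time held 3 rats, except galactosamine at 48 h with 2. Nevirapine alone at 3 h, 24 h and 48 h thus meant the first days of dosing, whereas the combination rats at those times had already had nevirapine for a week. The study was set up around the 8 d after galactosamine, the period in which the combination led to liver fibrosis while either drug alone did not.

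A ribosome joins a small subunit, which reads the messenger RNA, to a large subunit, which forms the peptide bonds, and each protein of either subunit is needed in about the same amount. In vertebrates the messenger RNAs of these proteins begin at the cap with a C followed by a run of pyrimidines, the TOP motif, through which the mTOR kinase and the RNA-binding protein Larp1 control their translation. Free Rpl5 and Rpl11 are known to bind and inhibit Mdm2, the ubiquitin ligase that keeps p53 low. The liver is a tissue with a high rate of protein synthesis, and galactosamine is known to trap uridine nucleotides in hepatocytes and so to limit RNA synthesis.

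The start sites of 43 of the 50 genes were found in the RefSeq promoter table for the rat build GRCr8, and the 30 bases around each annotated start, 15 before it and 15 from it, were searched for the pyrimidine runs CTTCC and CTTTC on the gene's strand. Overlapping matches were kept. At least 1 of the runs was present in 19 of 34 genes with a mean signal above log2 10 (55.9%), in 0 of 6 paralogs and pseudogenes, and in 2587 of all 27457 promoters in the table (9.42%). On the opposite strand the shares were 5.88% of the 34 genes and 10.2% of all promoters. A match describes letters near an annotated start and is not evidence of use. The windows of genes with large changes below are given in the direction of transcription with the matched bases in capitals, first for genes with a run, then for 3 subunit genes without one, and last for the 2 paralogs whose signals went their own way.
Rps3, chr1:163195762-163195791, minus strand: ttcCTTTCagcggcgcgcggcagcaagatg
Rpl12, chr3:36661925-36661954, plus strand: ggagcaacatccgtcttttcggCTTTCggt
Rpl35a, chr11:81235007-81235036, minus strand: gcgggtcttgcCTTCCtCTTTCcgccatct
Rps15, chr7:10068101-10068130, minus strand: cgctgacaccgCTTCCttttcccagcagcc
Rpl34, chr2:221962269-221962298, minus strand: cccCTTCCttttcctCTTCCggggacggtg
Rpl22, chr5:168117946-168117975, plus strand: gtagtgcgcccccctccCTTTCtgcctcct
Rpl18, chr1:105325255-105325284, plus strand: tctggacctggtctagcaggaggcgccatc
Rps16, chr1:92770643-92770672, plus strand: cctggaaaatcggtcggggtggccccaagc
Rpl11, chr5:153560788-153560817, minus strand: ggggacttgaagcttgtttggtgctgggga
Rpl7l1, chr9:21695703-21695732, plus strand: agctgcagatgcattgtgggaagcctttaa
Rps27l, chr8:76443643-76443672, plus strand: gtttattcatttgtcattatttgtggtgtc

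All values are log2 probe set signals, and the signal of one probe set cannot be set against that of another. Of the 50 genes, 38 (26 large subunit and 12 small subunit genes) had a mean over the 50 arrays above log2 10, between 10.79 and 13.07. The other 12 had means between 2.10 and 8.19 and comprised all 8 paralogs and pseudogenes together with Rpl28, Rpl30, Rpl39 and Rps13. Probe sets for Bacillus subtilis control transcripts, which rat liver does not make, had means of up to log2 4.37 over the arrays. Rpl28, Rpl30, Rpl3l, Rpl39l1, Rpl37-ps2 and Rps4x-ps1 had means under that level, so they were not shown to exceed background and no size of change is given for them.

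The arrays had medians between log2 4.95 and 5.09. The difference between the 3′ and 5′ probe sets of Gapdh, a measure of RNA integrity, ranged from 0.01 to 0.86. The 9 measured hepatocyte markers had group means above log2 10 in all 17 groups. The lowest was the transcription factor Hnf4a at 3 h, with means of 10.43 in combination livers and 10.0009 in galactosamine livers against 11.61 in vehicle livers. In whole liver, fewer cells of a type and less RNA per cell cannot be told apart. Differences were tested with limma over all 14217 genes, and a gene is called higher or lower at a Benjamini-Hochberg adjusted p under 0.05. Each p-value and SE rests on 1 spread between rats per gene, estimated over all 17 groups and not from the compared rats alone. Some groups varied more than others. At 48 h the rats' median over the 38 genes above log2 10 had an SD of 0.21 in combination livers and 0.03 in vehicle livers. For such groups the shared spread can be too small. The number of arrays per group limits precision as well.

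At 24 h after galactosamine alone, the ribosomal protein genes were higher almost throughout. Of the 50 genes, 39 were called higher and 1 lower, where 30.2% of all genes were called higher, 28.5% lower and 58.8% either way. The lower one, Rpl3l, was among the genes not shown to exceed background. The large subunit contributed 26 of its 29 genes and the small subunit 11 of its 13. Among the 38 bright genes, 36 rose and the median change was 0.47 on the log2 scale, a 1.39-fold difference, with a range from 0.17 to 0.75. The 772 other genes with a mean above log2 10 went the other way, with a median of -0.45, 16.6% called higher and 58.0% called lower. The median over all genes was -0.07.

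Rps3, a small subunit protein at the entry of the messenger RNA channel, had the highest change of the 38, with 12.25, 12.25 and 12.28 in galactosamine livers against 11.43, 11.65 and 11.46 in vehicle livers. The groups lay far apart, at a log2 difference of 0.75 ± 0.09 (SE, n = 3 each, adjusted p = 3.65e-09). Rpl18, of the large subunit, had 12.33, 12.23 and 12.33 in galactosamine livers against 11.55, 11.69 and 11.58 in vehicle livers. It was 1.61-fold higher (log2 0.69 ± 0.10, adjusted p = 1.21e-07), with no overlap of the groups. Rpl12, at the base of the stalk that recruits elongation factors, had 12.42, 12.40 and 12.56 against 11.83, 11.84 and 11.80 in vehicle livers. It was 1.56-fold higher (adjusted p = 1.47e-08), and Rplp0, which anchors the stalk, was 1.43-fold higher (adjusted p = 3.05e-07). Rps16 (log2 0.65), Rpl6 (0.62), Rpl35a (0.58) and Rpl11 (0.56) followed.

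Rps6, the classical substrate of the S6 kinases downstream of mTOR, had 12.58, 12.54 and 12.63 in galactosamine livers against 12.06, 12.07 and 12.10 in vehicle livers. All 3 galactosamine rats lay above all 3 vehicle rats, at 0.51 ± 0.07 (adjusted p = 1.56e-07). Rpl5, the partner of Rpl11 in the particle that binds Mdm2, was 1.35-fold higher (adjusted p = 1.88e-05). Of the 38 bright genes, Rpl37a and Rps28 were not called. Rpl37a had 12.18, 12.29 and 12.43 in galactosamine livers against 12.14, 12.13 and 12.09 in vehicle livers, a small separation in which every galactosamine rat was still the higher. Rps28 had 11.75, 12.21 and 11.81 in galactosamine livers against 11.76, 11.77 and 11.75 in vehicle livers, so its groups overlapped and 1 rat set the mean.

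Counting genes whose groups did not overlap, 40 of the 50 had every galactosamine rat above every vehicle rat at 24 h, where 29.9% of all genes did, and 2 had every galactosamine rat below, where 30.8% did. The Gapdh 3′ to 5′ difference overlapped between these groups, at 0.39 to 0.53 in galactosamine livers and 0.21 to 0.67 in vehicle livers. The size of the rise depends on how the arrays are scaled: with cyclic loess normalization in addition, the median over the 38 genes became 0.95 on the log2 scale and that over the 772 other bright genes -0.07, with 40 ribosomal protein genes called higher and 0 lower. For Rpl3 (-0.18 against 0.54) and Rpl7 (-0.62 against 0.51) a second, dimmer probe set ran against the one used, while all 3 probe sets of Rpsa lay between 0.42 and 0.61. The second probe set of Rpl14 was lower too, against 0.52 for the one used. Its mean of log2 4.06 lay under the background level of log2 4.37, so no size is given for it.

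**Figure D1:**
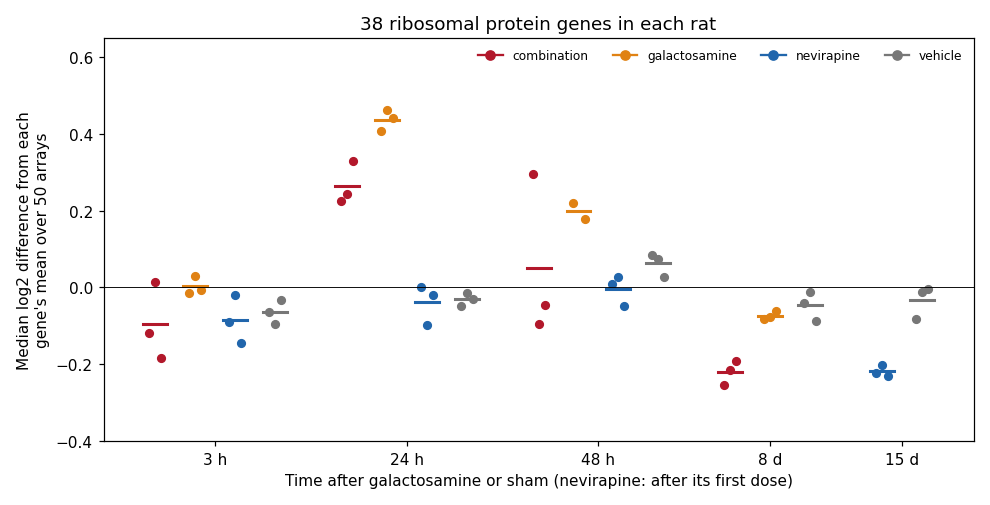
Median, over the 38 ribosomal protein genes with a mean above log2 10, of each rat's log2 difference from the gene's mean over the 50 arrays, by time and treatment. Points are rats and bars are group means. At 24 h the 3 galactosamine rats lie between 0.41 and 0.46, the 3 combination rats between 0.22 and 0.33 and the 3 vehicle rats between -0.05 and -0.01.

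In rats given nevirapine for a week before galactosamine, the same group of genes was also higher at 24 h. Against vehicle, 38 of the 50 genes were called higher and 1, Rpl37-ps2, lower, where 20.7% of all genes were called higher, 16% lower and 36.7% either way. The median over the 38 bright genes was 0.31 on the log2 scale, 1.24-fold, against -0.18 for the 772 other bright genes. Rps16 had 12.10, 11.97 and 12.16 in combination livers against 11.55, 11.58 and 11.64 in vehicle livers. Its groups did not overlap and it was 1.40-fold higher (adjusted p = 1.99e-06), as was Rps3 (1.40-fold, adjusted p = 3.96e-05). Rpl5 missed the threshold, with 12.57, 12.47 and 12.67 in combination livers against 12.31, 12.38 and 12.42 in vehicle livers (log2 0.20 ± 0.08, adjusted p = 0.0502), although its groups did not overlap. With cyclic loess the median over the 38 genes was 0.46. With only these 2 groups in the fit, 18 of the 50 genes were called, all of them higher, where 28.8% of all genes were called either way.

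Set directly against galactosamine alone, the combination livers had lower signals of some of these genes at 24 h. Here 15 of the 50 genes were lower and 1 was higher, where 21.6% of all genes were lower and 16.2% higher. Over the 38 bright genes the median was -0.14, with 14 lower and 0 higher, while the 772 other bright genes had a median of 0.24 with 44.2% higher. Rpl18 had 11.95, 11.75 and 11.95 in combination livers against 12.33, 12.23 and 12.33 in galactosamine livers. The ranges were apart, and the difference was -0.41 ± 0.10 (adjusted p = 0.000849). Rpl12 (-0.33, adjusted p = 0.00142), Rpl13a (-0.32, adjusted p = 0.00181), which is known also as part of an inflammatory translation silencing complex, and Rps3 (-0.26, adjusted p = 0.0197) were lower too. The Gapdh difference did not overlap, at 0.18 to 0.28 in combination livers and 0.39 to 0.53 in galactosamine livers, and with it as a covariate 12 genes were lower and 1 higher. With cyclic loess the median over the 38 genes was -0.46. The count of 16 called genes was 2 with only these groups in the fit and 38 with cyclic loess. It was 5 without combination rat 67, 7 without combination rat 69 and 9 without galactosamine rat 22, 23 or 24. Of all genes, 19.3% were called with only these groups in the fit and 37.4% with cyclic loess. Without rat 67, 4550 of the 14217 genes were called. The share was 32.5% without rat 69, and 34.1%, 34.9% and 33.3% without rats 22, 23 and 24. Only the cyclic loess count was thus above the background share.

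**Figure D2:**
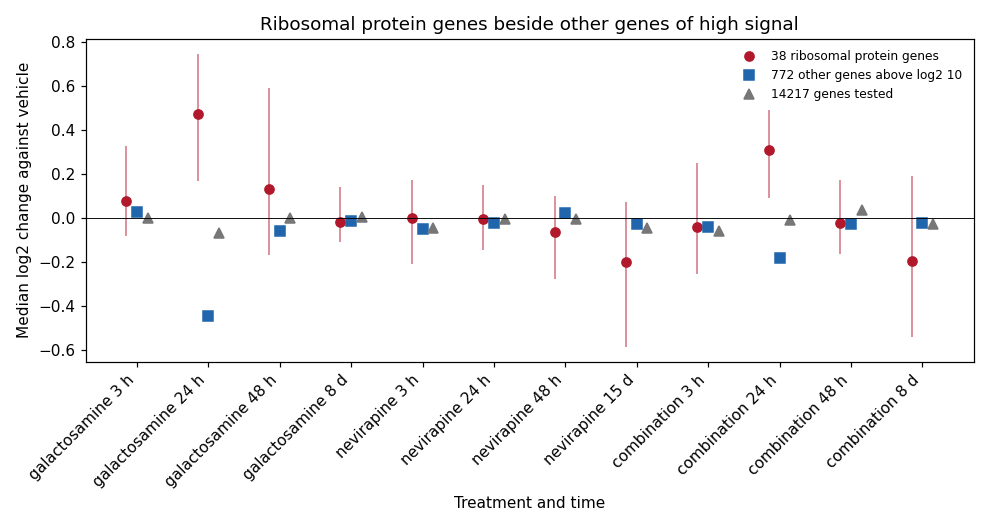
Median log2 change against vehicle of the 38 bright ribosomal protein genes (red circles, with lines from the lowest to the highest gene), of the 772 other genes with a mean above log2 10 (blue squares) and of all 14217 genes (grey triangles), for the 12 treated groups. At 24 h after galactosamine the red and blue medians are 0.47 and -0.45, and in the combination 0.31 and -0.18.

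The time course of the ribosomal protein genes after galactosamine alone had its highest median at 24 h among the 4 times sampled. At 3 h, 7 of the 50 genes were called higher and 2 lower, where 14.9% of all genes were higher and 18% lower, and the median over the 38 bright genes was 0.08. The 4 bright genes among them were Rps24 (log2 0.33), Rpl7 (0.30), Rpl24 (0.26) and Rps29 (0.23), and a second, dimmer probe set of Rps24 had -1.0. Rpl7 had 12.11, 12.15 and 12.05 in galactosamine livers at 3 h against 11.81, 11.81 and 11.78 in vehicle livers. These groups were well apart, and the gene was 1.23-fold higher (adjusted p = 0.00191). The difference between the 24 h and the 3 h effects, each against its own vehicle group, was tested too: 31 of the 50 genes had a higher effect at 24 h and 2, Rpl3l and Rpl28, a lower one, where 27.6% of all genes had a higher and 24.3% a lower one. In the combination, 27 had a higher effect at 24 h than at 3 h and 0 a lower one, where 16.1% of all genes had a higher and 12.6% a lower one.

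At 48 h after galactosamine alone, with 2 rats, 14 of the 50 genes were called higher and 3 lower, where 24.9% of all genes were higher and 14.5% lower. The count of higher genes was thus near the background share. The lower ones were Rps13, Rpl30 and Rps4x-ps1, the last 2 not shown to exceed background. The median over the 38 bright genes was 0.13, and 11 of them rose. Rpl18 had 12.13 and 12.03 in galactosamine livers against 11.51, 11.55 and 11.40 in vehicle livers, which did not overlap (log2 0.59 ± 0.11, adjusted p = 4.45e-05). Rpl3, which reaches close to the peptidyl transferase centre, was 1.48-fold higher (adjusted p = 0.000442), and Rps3 was 1.32-fold higher (adjusted p = 0.00165). A second, dimmer probe set of Rpl3 had a log2 change of only 0.01. The Gapdh 3′ to 5′ difference was 0.13 to 0.14 in these galactosamine livers and 0.48 to 0.74 in the vehicle livers, and with it as a covariate 10 genes were called higher and 2 lower. Of all genes, 33.3% were called with that covariate. Cyclic loess gave 25 higher and 2 lower, where 39.3% of all genes were called, with a median over the 38 genes of 0.27. The median was 0.24 with all 15 vehicle rats as the control, 0.10 without galactosamine rat 26 and 0.16 without rat 27. Leaving out vehicle rat 12 gave 11 calls, where 32.1% of all genes were called. The counts with the covariate and without rat 12 were thus not above the background share. By 8 d after galactosamine alone, limma called 0 of the 50 genes, with 1 at an unadjusted p under 0.05, where 0.00703% of all genes were called higher, 0.0281% lower and 0.0352% either way, and the median over the 38 bright genes was -0.02.

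In the combination, limma called 0 of the 50 genes at 48 h, with 4 at an unadjusted p under 0.05, where 10.2% of all genes were called higher, 5.77% lower and 15.9% either way. The 3 combination rats differed from each other: the median shift over the 38 bright genes was 0.30 in rat 70, -0.10 in rat 71 and -0.04 in rat 72, against 0.08, 0.07 and 0.03 in vehicle rats. Rpl11 showed the same split, with 12.45 in rat 70 and 11.99 in rat 71 and 12.001 in rat 72, against 12.50 and 12.51 in galactosamine livers and 12.18, 12.11 and 12.15 in vehicle livers. Without rat 70, 4 of the 50 genes were lower than in vehicle livers and the median over the 38 genes was -0.15. Of all genes, 7.77% were called either way, so that count was near the background share in either direction. Without vehicle rat 10 the count was 1, where 12.6% of all genes were called. The Gapdh difference did not overlap between any 2 of the combination, galactosamine and vehicle groups at 48 h. It was 0.29 to 0.35 in combination livers, 0.13 to 0.14 in galactosamine livers and 0.48 to 0.74 in vehicle livers. With it as a covariate 0 genes were called against vehicle. Against galactosamine alone at 48 h, 15 genes were lower and 3 higher, where 17.1% of all genes were lower and 12.1% higher, led by Rpl18 (-0.53 ± 0.11, adjusted p = 0.000266). The higher ones were Rpl39 (0.305) with Rpl30 and Rps4x-ps1. The median over the 38 genes was -0.15. Without rat 70 the count was 24, where 32.1% of all genes were called, and the median was -0.28. With cyclic loess the median was -0.26, and with the Gapdh covariate 15 genes were lower and 1 higher. The main count of 18 became 0 with only these groups in the fit and 9 without combination rat 71. Of all genes, 12.5% and 22.4% were called in these settings, so neither count was above the background share. At 3 h the combination had 2 genes higher and 4 lower than vehicle, where 15.2% of all genes were higher and 17.4% lower. The higher ones were Rps24 (0.25) and Rps27l (0.63), and the lower ones Rps13 (-0.63), Rpl7l1 (-0.49), Rpl18 (-0.25) and Rps15 (-0.24). Against galactosamine alone at 3 h, 1 gene was higher and 4 were lower, where 10.6% of all genes were higher and 7.06% lower. These were Rpl7l1 (0.39), Rpl35a (-0.28) and Rpl24 (-0.22), with Rpl28 and Rpl3l, which were not shown to exceed background, on the lower side. Without combination rat 62 this count was 8, without combination rat 61 or galactosamine rat 16 it was 3, without galactosamine rat 17 or 18 it was 2 and without combination rat 63 it was 1. Of all genes, between 11.3% and 18.5% were called in these settings. The combination count against vehicle was 1 with only these groups in the fit and 3 without combination rat 61, where 15.0% and 28.8% of all genes were called.

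**Figure D3:**
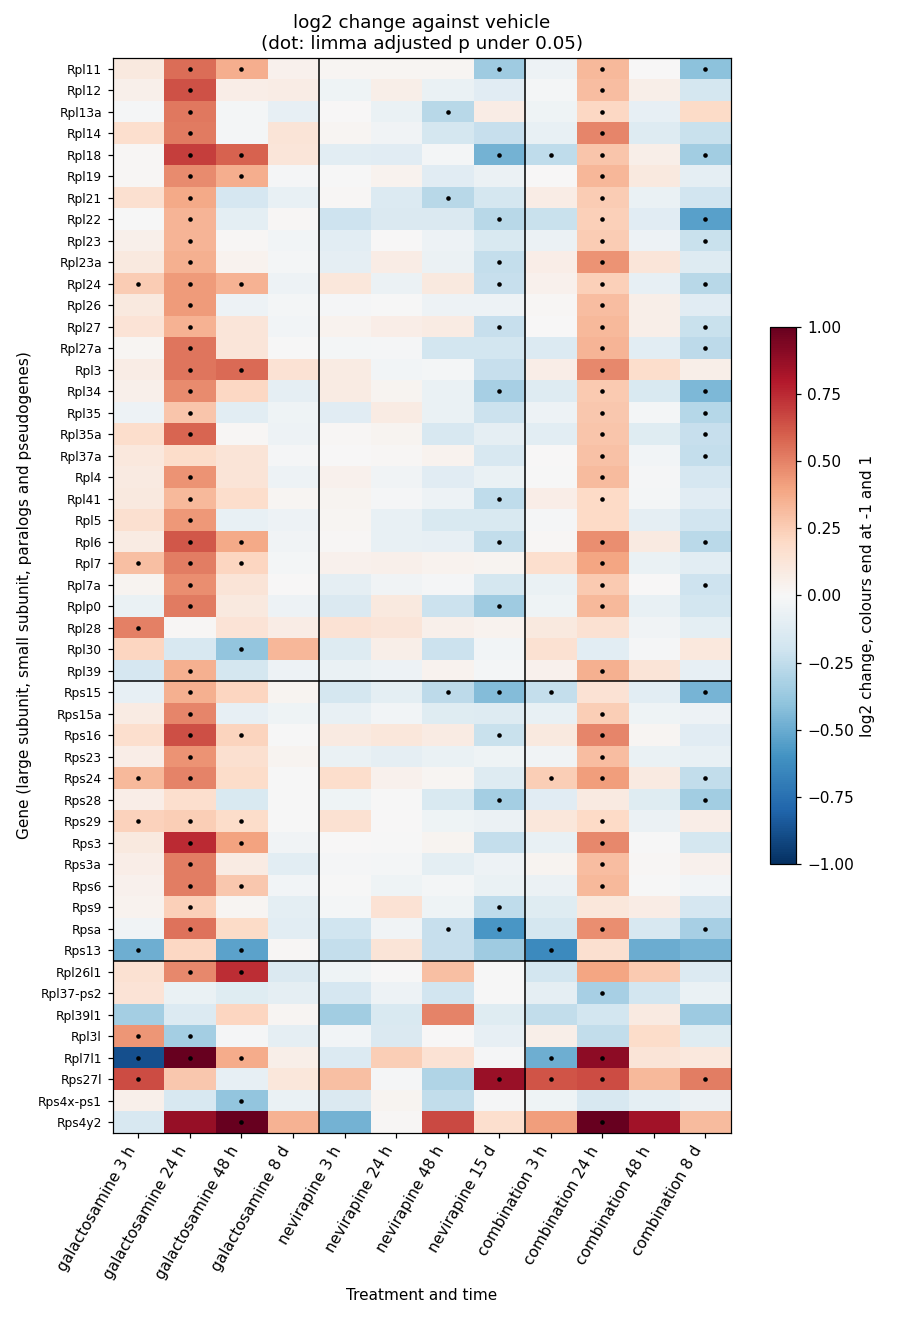
Log2 change against vehicle of each of the 50 genes (rows: large subunit, small subunit, then paralogs and pseudogenes) in the 12 treated groups (columns). Red is higher and blue is lower in treated livers, colours end at -1 and 1, and a dot marks a limma adjusted p under 0.05. The 24 h columns of galactosamine and of the combination hold 40 and 39 dots, and the nevirapine 15 d and combination 8 d columns hold 16 and 18.

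Nevirapine alone left these genes near their vehicle level during the first days. Limma called 0 of the 50 at 3 h, where 7.59% of all genes were called higher, 7.48% lower and 15.1% either way, with 5 at an unadjusted p under 0.05. It called 0 at 24 h, where 4.55% of all genes were called higher, 6.63% lower and 11.2% either way, with 0 at an unadjusted p under 0.05. The nevirapine rats at 3 h were taken 3 h after an oral dose and the vehicle rats 5 h after one. At 48 h, 0 genes were higher and 4 were lower, where 11.0% of all genes were higher and 6.44% lower. The 4 were Rpl21 (-0.28), Rpl13a (-0.27), Rps15 (-0.26) and Rpsa (-0.23), and without vehicle rat 12 the count was 2. With array weights it was 12, with all vehicle rats as the control 0 and with only these groups in the fit 2. Of all genes, 32.7%, 9.82% and 20.8% were called in the same order, and 9.56% without rat 12. The Gapdh difference was 0.01 to 0.86 in these nevirapine livers and 0.48 to 0.74 in vehicle livers. With it as a covariate 3 genes were called, all of them lower. Cyclic loess changed the split over all genes to 1089 higher and 1070 lower, from 1557 higher and 915 lower.

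After 15 d of nevirapine the ribosomal protein genes were lower in part. Of the 50 genes, 15 were called lower and 1 higher, where 8.79% of all genes were called lower and 5.13% higher, and the 15 comprised 10 large subunit and 5 small subunit genes. Over the 38 bright genes the median was -0.20, against -0.03 for the 772 other bright genes and -0.04 for all genes. Rpsa, a small subunit protein also known as the laminin receptor, had 11.00, 11.02 and 11.04 in nevirapine livers against 11.53, 11.60 and 11.68 in vehicle livers. The groups lay far apart and the log2 difference was -0.58 ± 0.08 (adjusted p = 1.76e-06). Its other 2 probe sets had -0.46 and -0.38.

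Rps15, which is needed for the export of the small subunit precursor from the nucleus in yeast and human cells, had 11.06, 11.11 and 11.11 in nevirapine livers against 11.51, 11.55 and 11.51 in vehicle livers. It was 1.35-fold lower (adjusted p = 0.000399) with no overlap. Rpl18 (-0.47), Rplp0 (-0.36), Rpl11 (-0.35), Rps28 (-0.34) and Rpl34 (-0.33) were lower too. Rps3 (-0.24), Rpl3 (-0.23), Rpl5 (-0.15) and Rps6 (-0.07) were not called at 15 d. Every nevirapine rat lay below every vehicle rat for 31 of the 50 genes, where 27.6% of all genes did so. The Gapdh 3′ to 5′ difference was 0.20 to 0.21 in nevirapine livers and 0.03 to 0.12 in vehicle livers, and with it as a covariate 13 genes were called lower and 1 higher. Marker sums that did not overlap were those of T and NK cells (175 to 186 in nevirapine livers, 210 to 216 in vehicle livers), B and plasma cells (427 to 521, 581 to 736), endothelial cells (2030 to 2327, 2524 to 2706) and cycling cells (65 to 76, 49 to 61). The lowest T and NK marker, Cd3d, had means of log2 3.17 in nevirapine livers and 3.59 in vehicle livers. The lowest cycling marker, Mki67, had 3.43 and 2.73. Among B and plasma cell markers the lowest were Mzb1 (3.99, nevirapine) and Ms4a1 (4.04, vehicle). All lay under the background level of log2 4.37, so these sums include signal not shown to exceed background. The part of all these cells in the ribosomal protein values was not tested. Hepatocyte sums overlapped, at 84669 to 87973 and 87056 to 87759. The call count fell to between 8 and 10 whichever of the 6 rats was left out, where between 8.07% and 10.4% of all genes were called. It was 27 with array weights, where 35.3% of all genes were called. With cyclic loess the split over all genes changed to 978 higher and 903 lower, from 729 higher and 1249 lower.

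At 8 d after galactosamine in the combination, which is also 15 d of nevirapine, 17 of the 50 genes were lower and 1 was higher than in vehicle livers at 15 d, where 11.7% of all genes were lower and 13.1% higher. Large subunit genes made up 13 of the 17. The median over the 38 bright genes was -0.20, against -0.02 for the 772 other bright genes. Rpl22, an RNA-binding protein that mice can lack without a general loss of translation, had 11.36, 11.20 and 11.33 in combination livers against 11.83, 11.85 and 11.83 in vehicle livers. It was 1.45-fold lower (log2 -0.54 ± 0.09, adjusted p = 3.99e-05), and no combination rat reached the vehicle range. Rps15 had 11.11, 11.00 and 11.07 in combination livers against 11.51, 11.55 and 11.51 in vehicle livers, again without overlap (1.38-fold lower, adjusted p = 8.55e-05).

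Rpl34 (-0.45), Rpl11 (-0.41), Rpl18 (-0.35), Rps28 (-0.34) and Rpsa (-0.33) were lower too. With the vehicle rats at 8 d as the control instead, 6 of the 50 genes were lower and 0 higher, where 12.4% of all genes were called either way. The count was near that share, although the share takes in both directions and all 6 genes were lower. The median over the 38 genes was -0.17. Against that control Rps15 (-0.33) and Rpl34 (-0.39) were still called, while Rpl22 (-0.21, adjusted p = 0.146), Rpl18 (-0.27, adjusted p = 0.0663), Rpl11 (-0.19, adjusted p = 0.167), Rps28 (-0.22, adjusted p = 0.102) and Rpsa (-0.18, adjusted p = 0.138) were not. The Gapdh difference was 0.05 to 0.33 in combination livers at 8 d, which overlapped vehicle livers at 15 d but not those at 8 d (0.03 to 0.05). The count was 28 with array weights and 11 with cyclic loess, and 9 without vehicle rat 15, 10 without vehicle rat 14 and 10 without combination rat 84. Of all genes, 39.1%, 25.3%, 17.3%, 19.3% and 18.3% were called either way in the same order. With cyclic loess or without 1 of these rats the count in either direction was thus near the background share, although most of the calls were lower.

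Markers of other cells differed at the same time point. All 4 measured cycling markers were higher in combination livers at 8 d (median log2 2.34), with summed linear signals of 145 to 684 in combination livers and 49 to 61 in vehicle livers at 15 d. Of 6 stellate cell and fibroblast markers 4 were higher, with sums of 4456 to 5863 in combination livers and 1323 to 1807 in vehicle livers. Of 7 macrophage and monocyte markers 3 were higher. Of 5 B and plasma cell markers 1 was higher and 1 lower, with sums of 1358 to 2327 in combination livers and 581 to 736 in vehicle livers, and of 3 cholangiocyte markers 1 was higher, with sums of 214 to 245 and 106 to 142. None of the 9 hepatocyte markers was called, and their sums were 85970 to 88193 and 87056 to 87759. The lowest cycling marker in vehicle livers at 15 d, Mki67, had a mean of 2.73, under the background level of log2 4.37. Krt7, the lowest cholangiocyte marker (2.84 in combination livers, 3.19 in vehicle livers), lay under it too. So did Ms4a1, the lowest B and plasma cell marker (3.81 and 4.04). The part of all these cells in the ribosomal protein values was not tested. At 24 h, 6 of the 7 macrophage markers were higher in the combination and 2 were higher and 1 lower after galactosamine alone, with sums of 3726 to 4310 in combination livers, 4689 to 5452 in galactosamine livers and 2091 to 2248 in vehicle livers. The lowest macrophage marker, Adgre1, had means of log2 7.06 in combination livers, 5.02 in galactosamine livers and 5.48 in vehicle livers. Endothelial markers were lower after galactosamine alone for 4 of 6 genes, with sums of 1342 to 1994 in galactosamine livers and 2008 to 2269 in vehicle livers. B and plasma cell markers had sums of 2029 to 3195 in combination livers, 1345 to 1458 in galactosamine livers and 498 to 556 in vehicle livers. Cholangiocyte sums were 240 to 642, 231 to 552 and 118 to 228, and cycling sums 81 to 166, 74 to 107 and 55 to 66, in the same order of groups. At 24 h the lowest B and plasma cell, cholangiocyte and cycling markers had means under log2 4.37 in each of these groups. Of the 9 hepatocyte markers 0 were higher and 2 lower in the combination and 2 higher and 3 lower after galactosamine alone, with sums of 81351 to 91373 in combination livers, 85625 to 89323 in galactosamine livers and 90402 to 92916 in vehicle livers. Macrophage sums stood apart from vehicle at 3 h too, at 5527 to 6063 in combination livers, 3508 to 4029 in galactosamine livers and 1853 to 2612 in vehicle livers, and at 48 h, at 4505 to 5866, 5459 to 5681 and 2443 to 3562. The part of these cells in the ribosomal protein values was not tested either.

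The combination at 8 d was set against each drug alone. Against nevirapine alone at 15 d, 1 of the 50 genes was higher and 0 were lower, where 9.31% of all genes were higher and 3.09% lower. That gene was Rpsa, with 11.28, 11.26 and 11.28 in combination livers against 11.00, 11.02 and 11.04 in nevirapine livers (log2 0.25 ± 0.08, adjusted p = 0.0222). Both groups of Rpsa lay below the vehicle range. This call was lost without combination rat 84 or 87 or any of nevirapine rats 43, 44 and 45. Against galactosamine alone, as a difference between the effects on each group's own vehicle rats, 5 genes were lower and 0 higher, where 5.34% of all genes were lower and 5.87% higher: Rpl22 (-0.55), Rps15 (-0.49), Rpl18 (-0.47), Rpl11 (-0.45) and Rpl34 (-0.36). Their adjusted p-values lay between 0.00513 and 0.0357. This count was 3 without combination rat 84, vehicle rat 14 or 1 of the 3 galactosamine rats, and 18 with array weights. Of all genes, between 7.62% and 8.98% were called without 1 of these rats and 27.8% with array weights. For 33 of the 38 bright genes the difference did not pass the threshold, which does not show that the groups were alike.

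**Figure D4:**
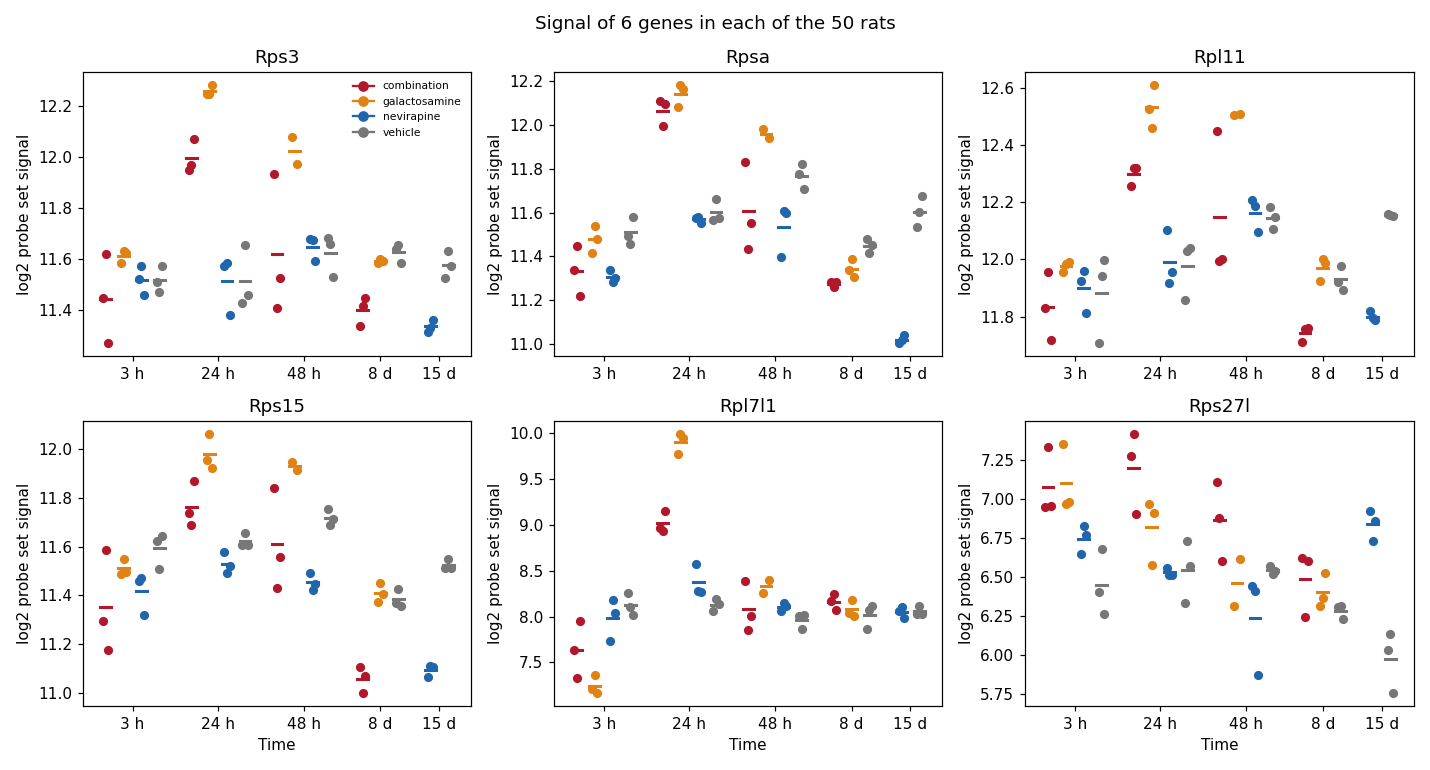
Log2 probe set signal of 6 genes in each of the 50 rats, by time and treatment. Points are rats, bars are group means, and each panel has its own axis, which does not start at 0. The group means of Rpsa and Rps15 are lowest in nevirapine 15 d and combination 8 d livers, and Rpl7l1 is lowest at 3 h and highest at 24 h after galactosamine alone.

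Several paralogs did not follow the subunit genes. Rpl7l1, a relative of Rpl7 whose yeast counterpart acts in large subunit assembly, had 7.21, 7.36 and 7.17 in galactosamine livers at 3 h against 8.26, 8.11 and 8.02 in vehicle livers. It was 1.84-fold lower (adjusted p = 3.94e-07), and Rpl7 itself was higher at that time. At 24 h Rpl7l1 had 8.97, 8.94 and 9.16 in combination livers and 9.77, 9.99 and 9.94 in galactosamine livers, against 8.06, 8.19 and 8.13 in vehicle livers. The 3 groups did not overlap, and Rpl7l1 was 1.86-fold higher in the combination (adjusted p = 2.09e-07) and 3.42-fold higher after galactosamine alone (adjusted p = 1.78e-15). It had the largest change of the 50 genes in that comparison, its second probe set had log2 1.85, and the combination was below galactosamine alone by -0.88 ± 0.12 (adjusted p = 2.55e-07). At 48 h after galactosamine it was still 1.29-fold higher (adjusted p = 0.03), and after 15 d of nevirapine it had a change of -0.01.

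Rps27l, a paralog of Rps27 that p53 activates in human and mouse cells, was called higher in 5 of the 12 comparisons with vehicle. At 3 h it had 7.35, 6.97 and 6.98 in galactosamine livers against 6.41, 6.68 and 6.26 in vehicle livers, with no overlap (1.57-fold higher, adjusted p = 0.000876), and in the combination it was 1.55-fold higher (adjusted p = 0.00158). After 15 d of nevirapine it had 6.92, 6.73 and 6.86 against 6.03, 6.13 and 5.76 in vehicle livers. It was 1.82-fold higher there (adjusted p = 0.000145) and was the only one of the 50 genes called higher, while 15 were lower. At 8 d in the combination it had 6.62, 6.24 and 6.60 against the same vehicle rats, 1.43-fold higher (adjusted p = 0.0119), a call that was lost against vehicle rats at 8 d (log2 0.20, adjusted p = 0.432), and at 24 h in the combination it was 1.57-fold higher (adjusted p = 0.000702). Galactosamine alone at 24 h gave 0.27 ± 0.15, which was not called (adjusted p = 0.123), and the combination was above it (log2 0.38 ± 0.15, adjusted p = 0.0479) with overlapping groups.

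Rps4y2 had 6.11 and 6.75 in galactosamine livers at 48 h against 4.68, 4.87 and 5.09 in vehicle livers. The ranges were apart at 1.55 ± 0.45 (adjusted p = 0.00539), but vehicle rats at 3 h alone spread from 4.24 to 6.45, so its spread between rats was wide. Rpl26l1 was higher at 24 h (0.48) and 48 h (0.74) after galactosamine alone. Rps13, a small subunit gene whose probe set was dim, was lower at 3 h after galactosamine (-0.49) and in the combination (-0.63), and at 48 h after galactosamine (-0.53).

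Other genes of the ribosome pathway gave a point of comparison. Of 16 measured genes other than ribosomal proteins whose messenger RNAs carry a TOP motif, 13 were higher and 0 lower at 24 h after galactosamine (median 0.47), among them Rack1, a scaffold on the small subunit (0.81), and the initiation factor subunits Eif3a (0.81) and Eif3f (0.71). In the combination at 24 h 7 were higher and 0 lower (median 0.26). The share of all genes called higher was 30.2% after galactosamine and 20.7% in the combination. After 15 d of nevirapine 5 of the 16 TOP genes were lower and 1 higher, where 8.79% of all genes were lower. The elongation factor Eef2 had -0.54 and Eef1d -0.48. Of 32 ribosome biogenesis genes, which make and process ribosomal RNA, 32 were higher at 24 h after galactosamine (median 1.70) and 32 in the combination (median 1.10), with Nop58, a core protein of small nucleolar particles, at 3.47 and 2.52. Calls among these 32 genes at 15 d of nevirapine (0 higher, 1 lower) and at 8 d of the combination (1 higher, 2 lower) were few. Of the 50 ribosomal protein genes 15 and 17 were lower at these times, and of all genes 8.79% and 11.7%.

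The 73 mitochondrial ribosomal protein genes had 42 calls at 24 h after galactosamine, a share near the 58.8% of all genes, with 16 higher and 26 lower (median -0.04), from Mrps2 at 1.79 to Mrpl20 at -1.72. After 48 h of nevirapine 25 of them were higher and 0 lower (median 0.25), where 11.0% of all genes were higher and 4 cytosolic genes were lower. At 8 d of the combination 17 were lower and 1 higher (median -0.18), where 11.7% of all genes were lower. Among 16 measured regulators of ribosomal protein synthesis, Mdm2 (3.17), the stress-induced mTOR inhibitor Sesn2 (2.15) and Myc, a driver of ribosome production (2.09), were higher and Deptor, an mTOR inhibitor, was lower (-3.07) at 24 h after galactosamine. After 15 d of nevirapine Larp1 was higher (0.56) and Sesn2 lower (-1.23). At 8 d of the combination Larp1 (0.47) and Mdm2 (0.83) were higher and Sesn2 lower (-0.74).

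The runs CTTCC and CTTTC near the start did not divide the 34 bright genes by the size of their change at 24 h after galactosamine. Windows without either of them can still hold other pyrimidine stretches, as those of Rpl14 and Rps24 do, so other runs were not examined. The 19 genes with a run had a median of 0.47 (0.18 to 0.75) and the 15 without one a median of 0.51 (0.17 to 0.69). After 15 d of nevirapine the medians were -0.15 with a run and -0.23 without one, and at 8 d of the combination -0.20 and -0.20. At 48 h they were 0.08 and 0.18 after galactosamine, -0.12 and -0.02 after nevirapine and -0.06 and 0.01 in the combination, with overlapping ranges. Rps3 with a run and Rpl18 without one led the rise at 24 h, and Rpl22 with a run and Rpl11 without one were both among the low genes at 8 d.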

How the data were processed

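Liver RNA of 50 rats in 17 groups was measured on Affymetrix arrays with 31099 probe sets. The authors' deposited values are log2 probe set signals, for which the submitters' processing notes name RMA and limma without versions, and depth does not apply to arrays. They were used without further scaling. The array annotation names 1 gene for 20826 probe sets, several for 436 and none for 9831, and 6 annotated control probe sets were left out. Each gene is represented by its brightest probe set, judged by the average of all arrays. Group means were fitted with limma 3.58.1 (R 4.3.3, lmFit and eBayes) over all 50 arrays, with Benjamini-Hochberg adjustment over 14217 genes in each of 19 comparisons. The 8 d combination rats, dosed for 15 d, were set against vehicle rats at 15 d. Genes were named by rule: up to 10 called rises and 10 called falls per comparison, a list of well known members, and up to 4 genes of each related list. The genes, the related lists and the markers were chosen with earlier results of these data known, and the log2 10 level, the background level and the placing of Rps4y2 and the 2 pseudogenes with the paralogs were set after the values were seen. In values simulated for the galactosamine 24 h comparison over 14217 genes, 100 genes were moved 1.5-fold, 100 were moved 1.2-fold and the rest were left unmoved. Of these, 59, 4 and 3 genes were called. In the data 58.8% of all genes were called in that comparison, which makes the adjusted threshold easier to pass. The simulated shares therefore do not carry over to the data. Alternatives covered the arrays in the fit, the probe set rule, dim genes, cyclic loess, array weights, the Gapdh difference, the vehicle group and each rat left out. Background correction could not be varied, and scan dates were not used here, so batches were not examined.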

Additional observations from a re-analysis of the deposited data

Results flagged for a closer look

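The combination differed from galactosamine alone in 5 of the 50 ribosomal protein genes at 3 h, 16 at 24 h, 18 at 48 h and 5 at 8 d. Each was a direct test of the difference between the treated groups or between their effects. Of all genes, 17.7%, 37.8%, 29.3% and 11.2% were called in these tests. The counts at 3 h, 24 h and 8 d, taken in either direction, were thus no higher than the background share. By direction, 15 genes were lower at 24 h and 5 at 8 d, where 21.6% and 5.34% of all genes were lower. The count at 48 h was above its share here, but was 0 with only these groups in the fit, where 12.5% of all genes were called. The effect at 24 h differed from that at 3 h in 33 of the 50 genes after galactosamine alone and in 27 in the combination. Of all genes, 51.9% and 28.7% did so.

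Probe sets that the annotation gives to several genes were outside the comparisons. Of these, 30 list ribosomal protein genes only, and 27 of the 30 have a mean above log2 10. At 24 h after galactosamine 27 of the 30 were called, all of them higher (median 0.45), and in the combination 23 were called, all of them higher (median 0.30). After 15 d of nevirapine 15 were called, all of them lower (median -0.23), and at 8 d of the combination 14 were called, 13 of them lower and 1 higher (median -0.23). Which of the listed genes each signal comes from cannot be read from these probe sets.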

How the results depend on the processing

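No paired analysis was possible because every rat has its own number and no 2 groups share one. Counts of called genes that moved by over 1.5 times are given here. The share of all genes called changed between these settings too, so a count alone does not show a change particular to these genes. With only the compared groups in the fit, the count was 2 for nevirapine at 48 h, and against vehicle in the combination 1 at 3 h, 18 at 24 h and 1 at 48 h, and against galactosamine 0 at 3 h, 2 at 24 h and 0 at 48 h, and 8 for 24 h against 3 h. With array weights it was 14 (galactosamine 3 h), 1, 12 and 27 (nevirapine 3 h, 48 h, 15 d), 2 and 28 (combination 48 h, 8 d), and 2, 18 and 5 (combination against galactosamine at 3 h and 8 d, and against nevirapine). With cyclic loess it was 27 (galactosamine 48 h), 1 (nevirapine 3 h), 1 and 11 (combination 48 h, 8 d), 2 and 38 (combination against galactosamine at 3 h and 24 h) and 2 (against nevirapine). With all 15 vehicle rats as the control it was 3 (galactosamine 8 d), 2, 1 and 0 (nevirapine 3 h, 24 h, 48 h), 4 (combination 48 h) and 41 (combination 24 h against 3 h), and with the 8 d vehicle rats 6 (combination 8 d). The mean of all probe sets gave 1 (nevirapine 3 h) and 3 (combination against nevirapine), and the Gapdh covariate 1 (nevirapine 3 h). The cause was not tested.

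Leaving out 1 rat gave 8 to 10, 39 to 40, 10 to 15 and 0 to 0 calls for galactosamine at 3 h, 24 h, 48 h and 8 d, 0 to 0, 0 to 0, 2 to 4 and 8 to 10 for nevirapine at 3 h, 24 h, 48 h and 15 d, and 3 to 5, 30 to 36, 0 to 4 and 9 to 15 for the combination at 3 h, 24 h, 48 h and 8 d. It gave 1 to 8, 5 to 16, 6 to 24 and 3 to 5 for the combination against galactosamine at 3 h, 24 h, 48 h and 8 d, 0 to 1 against nevirapine, and 28 to 34 and 19 to 27 for 24 h against 3 h after galactosamine and in the combination. With 1 galactosamine rat left at 48 h, that rat is assumed to vary like the other groups. With the mean of its probe sets, Rps24 at 3 h after galactosamine turned to -0.33 (adjusted p = 0.0433) and Rpl3 in 24 h against 3 h after galactosamine to -0.0514 (adjusted p = 0.763), since their second probe sets ran the other way. Over 156 called gene results and 2172 settings, 1840 kept direction and call, 330 kept direction only and 2 reversed. Of 261 medians over the 38 bright genes, 247 moved by less than 0.0676, the SD between rats of a group. The other 14 comprised 8 under cyclic loess: 0.95 and 0.27 for galactosamine at 24 h and 48 h, 0.46 for the combination at 24 h, -0.46 and -0.26 for the combination against galactosamine at 24 h and 48 h, and 0.89 and 0.47 for 24 h against 3 h after galactosamine and in the combination. The eighth was -0.04 for the combination against galactosamine at 3 h. With all vehicle rats as the control the medians were 0.24 (galactosamine 48 h), 0.03 (nevirapine 48 h) and 0.07 (combination 48 h), with array weights -0.09 (combination 48 h), and without rat 70 -0.15 and -0.28 (combination 48 h against vehicle and against galactosamine).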
